A study of Mus musculus with 22 samples.

Results

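The ADAMTS genes described here are Adamts1, Adamts5, Adamts2, Adamts3, Adamts4, Adamts9, Adamts10, Adamts17 and Adamts20, 9 of the 55385 genes of the count table, taken by their symbols. Adamts1 and Adamts5 lie in the triplicated segment of the Ts66Yah mouse, and the other 7 lie on other chromosomes and are present in the usual copy number. RNA-Seq was performed on 2 brain regions, hippocampus (HIP) and entorhinal cortex (EC), of male mice aged 5 to 6 months, 6 Ts66Yah mice and 5 wild-type (wt) littermates, so that 11 animals gave 22 libraries. Ts66Yah mice model Down syndrome by carrying a freely segregating minichromosome that holds mouse chromosome 16 (Mmu16) from Mir155 to the telomere. The line goes back to a single founder, made by deleting the centromeric Mmu17 part of the Ts65Dn minichromosome with CRISPR/Cas9, and was kept on a mixed B6C3B background. The wt littermates shared this background and carried no minichromosome.

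ADAMTS proteins are secreted metalloproteases with a zinc-binding catalytic domain and thrombospondin type repeats that cut proteins of the extracellular matrix. Adamts1, Adamts4, Adamts5, Adamts9 and Adamts20 cut proteoglycans such as aggrecan and versican, which in the brain surround neurons and form perineuronal nets. Adamts2 and Adamts3 remove the amino-terminal propeptide of procollagens and also cut reelin, and Adamts10 and Adamts17 are tied to fibrillin microfibrils. The proteases are made as zymogens that furin-like convertases activate, and Timp3 inhibits several of them.

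Libraries held 25.9 to 50.1 M counts (median 34.7 M). Levels are given as CPM, the counts of a gene relative to the size of its library scaled by TMM factors. The dissections carried their regional markers: the summed level of 7 hippocampal markers was 713 to 896 CPM in the HIP libraries and 69.2 to 109.6 CPM in the EC libraries, and that of 6 cortical markers was 143 to 209 CPM in the HIP and 472 to 783 CPM in the EC. The 6 choroid plexus markers summed to 114 to 3322 CPM in the HIP and to 10.5 to 44.3 CPM in the EC. No marker was at 0 in all libraries of a group.

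Adamts1 (ENSMUSG00000022893, GRCm38, chromosome 16, 85793827 to 85803113, minus strand) and Adamts5 (ENSMUSG00000022894, 85856173 to 85901828, minus strand) are neighbours, 53.1 kb apart with 1 annotated gene between them. Adamts1 lies 1079.7 kb past the start of Mir155, towards the telomere. The untriplicated members are at chr11:50602084-50807573 (Adamts2), chr5:89677087-89883334 (Adamts3), chr1:171250421-171260637 (Adamts4), chr6:92772699-92943492 (Adamts9), chr17:33524204-33553782 (Adamts10), chr7:66839735-67153171 (Adamts17) and chr15:94270163-94465418 (Adamts20). All members code for the zinc-binding site of metzincin proteases, in which 3 histidines hold the catalytic zinc and a glutamate takes part in cleavage. These sites are shown because they show how alike the members are whose levels follow. They were read from the GENCODE M21 transcript with the longest coding sequence, 5′ to 3′, with the histidine and glutamate codons in capitals.
Adamts1: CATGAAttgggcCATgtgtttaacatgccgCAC
Adamts5: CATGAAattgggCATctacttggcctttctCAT
Adamts4: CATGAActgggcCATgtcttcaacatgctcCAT
Adamts2: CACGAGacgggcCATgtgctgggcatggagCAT
Adamts3: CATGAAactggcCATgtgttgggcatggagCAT
The Adamts1 site lies at chr16:85799191-85799545 and the Adamts5 site at chr16:85878015-85887826, each in coding exons and interrupted by an intron. Of the 33 bases, 12 were the same in all 9 members. The site of Adamts1 shared 28 bases with that of Adamts9, 27 with Adamts4 and 24 with Adamts20 and Adamts3, but only 20 with its neighbour Adamts5. Adamts2 and Adamts3 were the most alike pair, with 29 shared bases. In every member the intron falls inside the site. It follows base 10 of the site in Adamts1, Adamts4 and Adamts5, which have 8 or 9 exons in these transcripts, and base 17 in the other 6 members, which have 22 to 40 exons.

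No run of 50 bases, the length of the reads, was shared between the transcripts of any 2 members, and none of those of Adamts1, Adamts5, Adamts3, Adamts10 and Adamts20 occurred in a transcript of any other gene. For Adamts9, 5.16% of such runs also lay in A730049H05Rik or Gm15737 on the opposite strand. Since the strand setting of the counting is not stated, part of its reads cannot be told apart from those of its partners. For Adamts2 and Adamts17 the shared runs made up 0.873% and 0.167%.

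The first question was whether the triplicated members were expressed according to their copy number. Adamts1 was higher in Ts66Yah in both regions, by 1.58-fold in the HIP and by 1.80-fold in the EC, and passed the threshold in both. Adamts5 was higher by similar factors, 1.60-fold and 1.59-fold, with no overlap between genotypes, but its adjusted p missed the threshold in both regions. None of the untriplicated members was called. In these tissue samples, fewer cells of a type and less RNA per cell cannot be told apart.

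Adamts1 cuts aggrecan and versican and is known as a gene induced by injury and inflammation. In the HIP it was at 25.4, 30.4, 29.1, 25.2 and 27.8 CPM in the 5 wt mice. The 6 Ts66Yah mice ranged from 39.3 to 54.4 CPM with a median of 42.3 CPM, so that the lowest of them lay above every wt mouse. The wt mean of 27.6 ± 2.26 CPM (SD, n = 5) compares with 43.8 ± 5.48 CPM (SD, n = 6) in Ts66Yah, which gave a log2 fold change (log2FC) of 0.66 (standard error, SE, 0.08) with a 95% confidence interval of 0.48 to 0.84 and an edgeR adjusted p of 0.000803. Among all 18452 tested genes, 0.591% were called in the HIP and 0.439% were called higher.

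In the EC, where Adamts1 was less abundant, the 5 wt mice had 9.72, 9.46, 9.27, 12.8 and 10.1 CPM. The 6 Ts66Yah mice ranged from 14.8 to 21.9 CPM with a median of 18.0 CPM. Again the genotypes did not overlap, and replicates 5 and 6 of Ts66Yah were the highest. The wt mean of 10.3 ± 1.43 CPM (SD, n = 5) compares with 18.5 ± 2.75 CPM (SD, n = 6) in Ts66Yah, a log2FC of 0.85 (SE 0.12, 95% confidence interval 0.60 to 1.10, adjusted p = 0.00364 by edgeR). In this region 0.283% of 17658 tested genes were called and 0.272% were called higher. Ranked by fold change among the tested segment genes, Adamts1 was number 6 of 93 in the EC and number 30 of 101 in the HIP.

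Adamts5, known for its aggrecanase activity in cartilage, had the lowest mean level per transcript length of the members in every group. Its raw counts ran from 43 to 192 per library. In the HIP the wt mice had 1.48, 2.31, 2.04, 1.74 and 2.15 CPM, and the Ts66Yah mice ranged from 2.67 to 4.04 CPM with a median of 3.08 CPM. The highest wt mouse was below the lowest Ts66Yah mouse. The log2FC was 0.68 (SE 0.15, 95% confidence interval 0.363 to 1.003), with an edgeR adjusted p of 0.0611 that did not pass the threshold of 0.05.

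In the EC, Adamts5 was at 2.46, 2.86, 2.42, 3.10 and 2.14 CPM in wt, and ranged from 3.28 to 5.02 CPM in Ts66Yah with a median of 4.28 CPM. The genotypes were again apart, with a log2FC of 0.67 (SE 0.14, 95% confidence interval 0.36 to 0.98) and an edgeR adjusted p of 0.108. This call depended on the tool and on the libraries fitted together: DESeq2 gave adjusted p-values of 0.00424 for HIP and 0.00405 for EC, and edgeR over all 22 libraries gave 0.0252 and 0.0269. Groups that did not overlap, with Ts66Yah higher, were found for 1.06% of the tested genes in the HIP, for 0.549% in the EC, and for 0.342% of 17232 genes in both. Within the segment the shares were 64.4% and 58.1%.

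**Figure D1:**
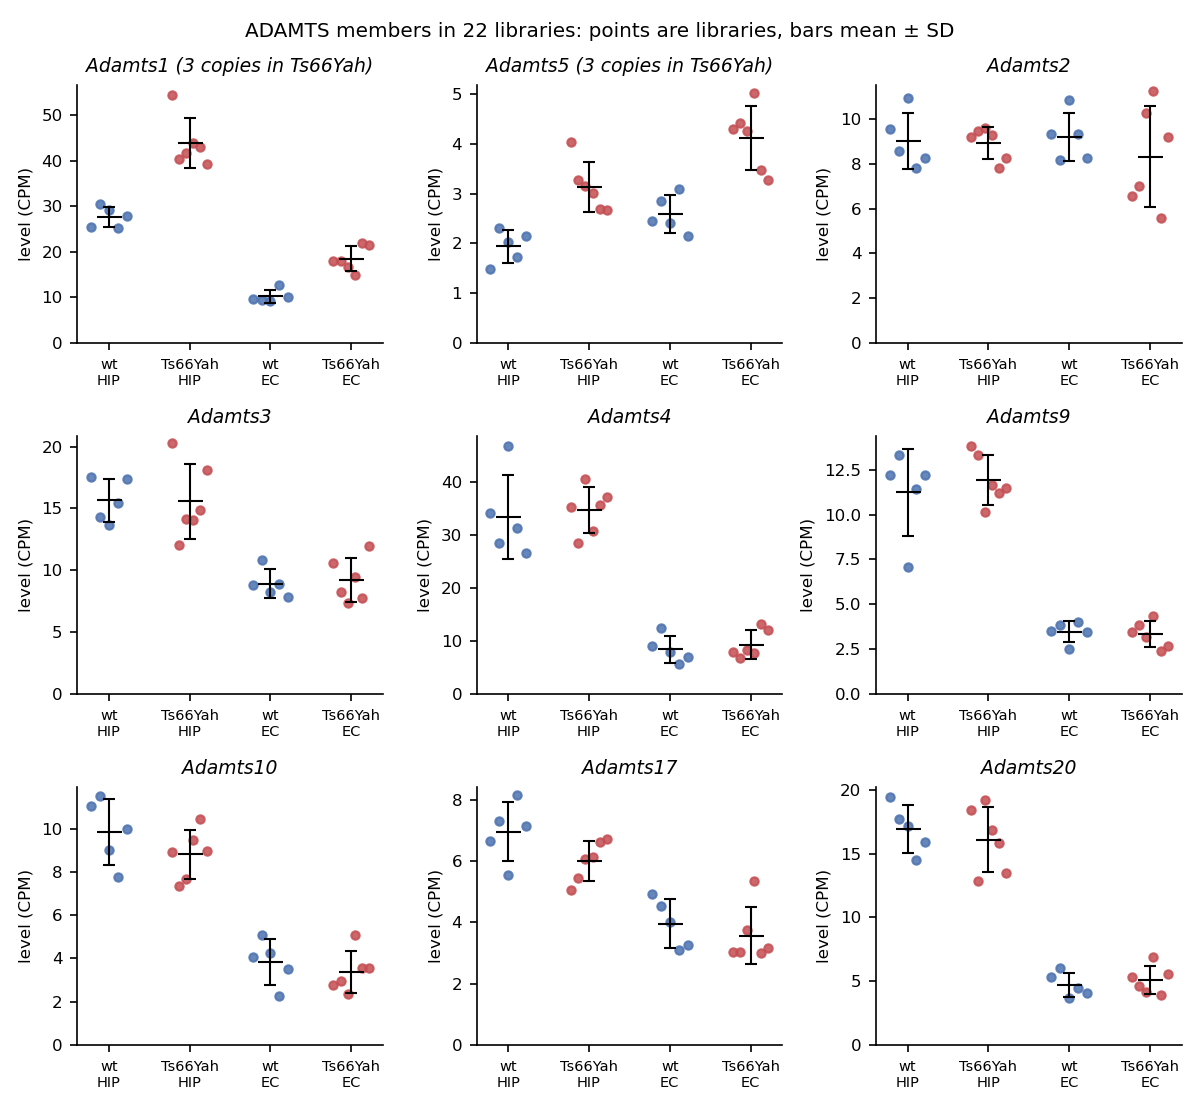
Level (CPM) of each member in the 22 libraries. Points are libraries, blue for wt (n = 5) and red for Ts66Yah (n = 6), and bars give the mean ± SD of a group. In the panels of Adamts1 and Adamts5 all Ts66Yah points lie above all wt points of the same region, whereas in the other panels the genotypes overlap.

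Since both libraries of a mouse share the animal, the log2 CPM of the regions was averaged per animal. Adamts1 was higher in Ts66Yah by 0.75 on the log2 scale, or 1.68-fold, and Adamts5 by 0.67, or 1.59-fold. A permutation test of these averages over the animals could only give its smallest p, since the separation of the genotypes in each region fixes their separation. It is therefore not used.

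Both genes were then tested against the 1.5-fold given by their copy number, which is 0.585 on the log2 scale. In the HIP, Adamts1 exceeded it by 0.08 (SE 0.08, 95% confidence interval -0.10 to 0.26, edgeR adjusted p over the segment genes 0.735) and Adamts5 by 0.10 (SE 0.15, -0.22 to 0.42, adjusted p = 0.772). In the EC, Adamts1 exceeded it by 0.26 (SE 0.12, 0.01 to 0.51), with an unadjusted p of 0.0399 and an adjusted p of 0.351. Adamts5 exceeded it by 0.09 there (SE 0.14, -0.22 to 0.39, adjusted p = 0.880). Thus neither gene was called as departing from 1.5-fold, by edgeR or by DESeq2, while 5.94% of the tested segment genes were called for HIP and 1.08% for EC. Over the tested segment genes the median log2FC was 0.586 for HIP and 0.574 for EC.

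The genotype difference of Adamts1 was 0.19 larger in the EC than in the HIP on the log2 scale (SE 0.15, 95% confidence interval -0.12 to 0.49), and that of Adamts5 was 0.01 smaller (SE 0.20, -0.43 to 0.41). Neither passed the test of genotype by region, with unadjusted edgeR p-values of 0.217 and 0.953. No member had an unadjusted p under 0.05 in this test, in which 388 of 19074 genes did and 0 passed the adjusted threshold with edgeR or DESeq2.

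None of the 7 untriplicated members was called between genotypes in the HIP or the EC. In the HIP, their log2FCs ran from -0.21 for Adamts17 (SE 0.11, unadjusted p = 0.0782, adjusted p = 0.481 by edgeR) to 0.09 for Adamts9 (SE 0.14, adjusted p = 0.859 by edgeR). The upper confidence limit lay below 1.5-fold for all 7. In the EC, they ran from -0.19 for Adamts10 (SE 0.22) to 0.15 for Adamts4 (SE 0.22), with edgeR adjusted p-values of at least 0.975, and the upper limit lay below 1.5-fold for 6. That of Adamts4 was 0.61 on the log2 scale, so that 1.5-fold lies inside its interval.

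**Figure D2:**
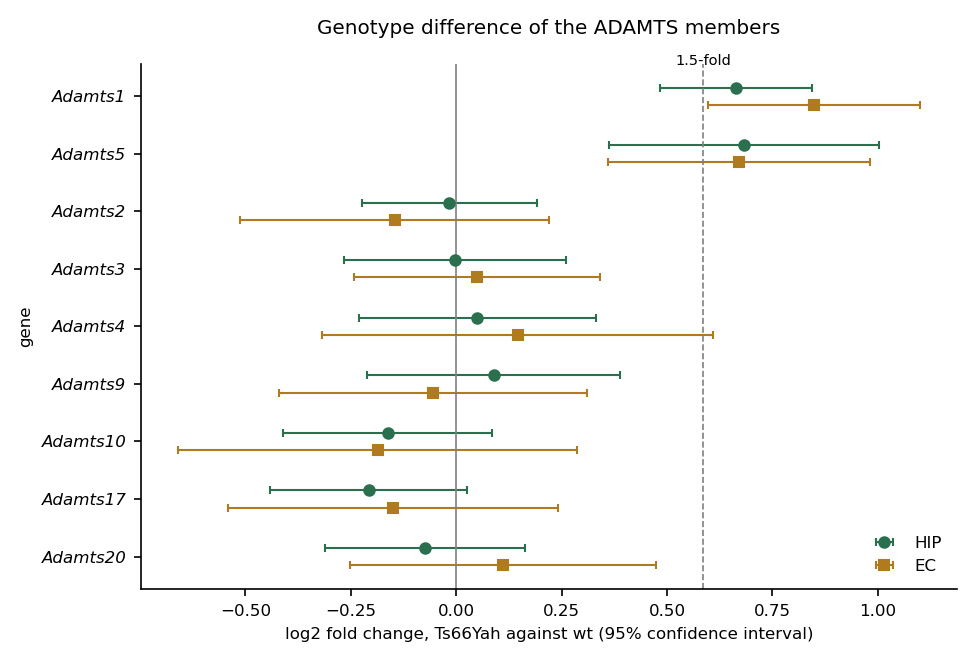
Log2 fold change of Ts66Yah against wt for each member, with its 95% confidence interval from edgeR, in the HIP (circles) and the EC (squares). The dashed line marks 1.5-fold. Adamts1 and Adamts5 lie right of 0 in both regions, and the intervals of the other 7 members span 0.

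Among the RNA of the 9 members, the part that Adamts1 made up was larger in Ts66Yah, given as a description. Other ADAMTS genes are not in this sum. Divided by transcript length (RPKM) and summed over the 9 members, Adamts1 made up 21.4 ± 1.77% (SD, n = 5) of the sum in wt HIP but 30.2 ± 2.22% (SD, n = 6) in Ts66Yah HIP. In the EC its share was 20.04 ± 3.98% in wt and 30.4 ± 3.91% in Ts66Yah. Adamts5 held 0.683 ± 0.12% in wt HIP and 0.982 ± 0.136% in Ts66Yah HIP, and 2.28 ± 0.333% and 3.11 ± 0.649% in the EC. Between the triplicated genes, the ratio of Adamts1 to Adamts5 per length had a median of 31.5 in wt HIP and 30.9 in Ts66Yah HIP. In the EC the medians were 8.73 and 9.12.

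Immediate early genes such as Fos, Arc and Egr1 mark recent neuronal activity, and their level moved with Adamts1 in part of the EC libraries. The summed level of 9 such genes was 169 to 632 CPM in wt EC and 205 to 1387 CPM in Ts66Yah EC. The highest sums, 1387 and 1155 CPM, belonged to replicates 5 and 6 of Ts66Yah, which also had the highest Adamts1 level of the EC, 21.9 and 21.5 CPM. Among wt EC libraries the order was different: replicate 4, with the lowest sum of 169 CPM, had the most Adamts1, 12.8 CPM. After removing the mean of each group, the log2 correlation with the sum within EC was 0.44 for Adamts1 (0.19 within HIP). Other sums ran as closely with Adamts1 within EC. Its correlation was 0.54 with genes of VEGF-C activation and 0.46 with the cortical sum. It was -0.50 with oligodendrocyte precursor markers, -0.53 with the hippocampal sum and -0.66 with activating proteases. For other members within EC, the correlation with the activity-regulated sum was 0.60 for Adamts4, 0.27 for Adamts3, 0.22 for Adamts10 and -0.18 for Adamts20. It was -0.45 for Adamts17, -0.62 for Adamts9, -0.64 for Adamts2 and -0.80 for Adamts5, given as a description. For the list, the log2FC of Ts66Yah against wt was above 0 for 9 of 9 genes in the EC with a median of 0.75, beside a median of -0.00446 over all tested genes. None of the 9 passed the threshold, 2 had an unadjusted p under 0.05, and DESeq2 called 0.

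Ts66Yah replicates 1, 5 and 6 lay above every wt EC library in this sum. Without these 3 libraries, an alternative chosen after seeing the data, the EC difference of Adamts1 was 0.69 (SE 0.12) and its edgeR adjusted p was 0.0734, past the threshold no longer. The difference of Adamts5 was then 0.82 (SE 0.15, adjusted p = 0.0867). In the HIP, where replicates 5 and 6 of Ts66Yah lay above every wt library with 557 and 543 CPM against at most 514 CPM, leaving them out gave 0.71 for Adamts1 (SE 0.09, adjusted p = 0.00360). The highest Adamts1 level of the HIP, 54.4 CPM, belonged to Ts66Yah replicate 1, with a sum of 470 CPM. The choroid plexus sum of this library was 2860 CPM, against 782 to 2076 CPM in the other Ts66Yah HIP libraries. Within HIP, Adamts1 correlated at 0.65 with the choroid plexus sum and at -0.67 with the cortical sum. The part of neuronal activity in the level of Adamts1 was not tested further, and that of choroid plexus tissue was not tested.

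**Figure D3:**
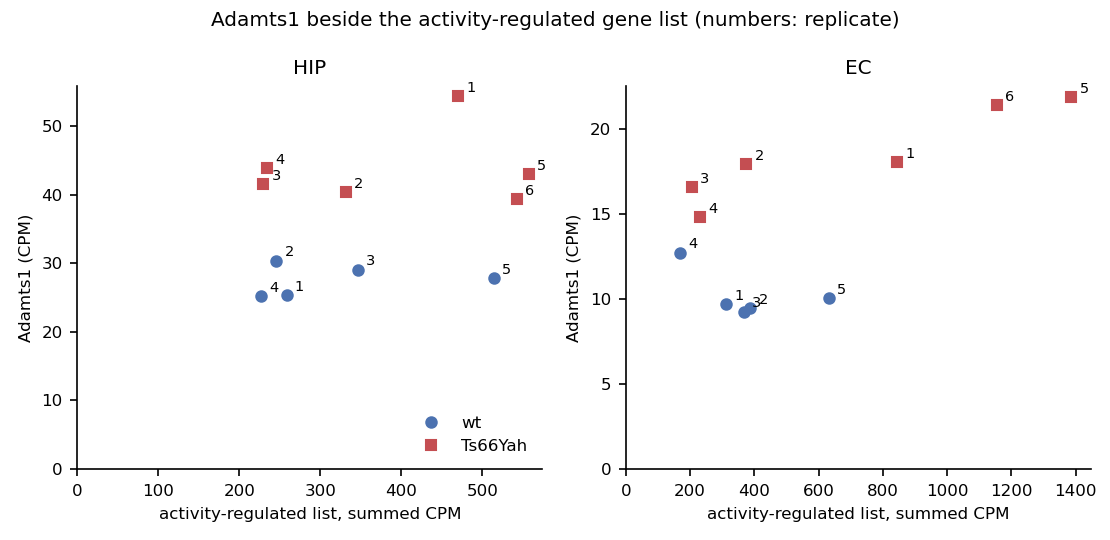
Adamts1 level (CPM, vertical) against the summed CPM of 9 activity-regulated genes (horizontal) in the HIP (left) and the EC (right). Each point is a library, numbered by replicate, with circles for wt and squares for Ts66Yah. In both regions all Ts66Yah points lie above all wt points, and in the EC replicates 5 and 6 of Ts66Yah are highest on both axes.

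The regions were compared next. Within wt, 8 of the 9 members differed between EC and HIP, 7 of them lower in the EC, and the same 7 were lower in Ts66Yah. Adamts5 was the only member called higher in the EC, and Adamts2 was not called. Regional differences are common in these data: 47.7% of the tested genes were called in wt (23.4% higher and 24.3% lower in the EC) and 54% in Ts66Yah (26.4% higher and 27.5% lower). Fitting the animal as a block changed the call of no member.

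Adamts4, which cuts aggrecan and brevican and is known as a gene of oligodendrocytes, had the largest difference of the members. In wt HIP it was at 34.2, 28.4, 46.7, 31.4 and 26.6 CPM, and in wt EC at 9.05, 12.5, 7.88, 5.62 and 7.02 CPM. The log2FC of EC against HIP was -1.99 (SE 0.20, adjusted p = 5.27e-06 by edgeR). In Ts66Yah the HIP libraries ranged from 28.6 to 40.6 CPM and the EC libraries from 6.79 to 13.3 CPM, with a log2FC of -1.90 (SE 0.15, adjusted p = 1.28e-07 by edgeR). The regions did not overlap in either genotype.

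Oligodendrocyte markers moved together with Adamts4. All 7 of these markers, myelin genes such as Mbp and Mog, were called lower in the EC in both genotypes, with a median log2FC of -2.11 in wt and -2.03 in Ts66Yah, and their summed level was 7277 to 10584 CPM in the HIP and 1416 to 3518 CPM in the EC. Within an animal, the ratio of EC to HIP was 0.249 for Adamts4 and 0.243 for the marker sum (medians over 11 mice). Divided by the ratio of the marker sum, that of Adamts4 was 1.05 in the median and ran from 0.920 to 1.17. In wt EC, replicate 2 had both the highest marker sum, 3518 CPM, and the most Adamts4. The same library also had the highest sums of striatal markers, 280 CPM, and of choroid plexus markers, 44.3 CPM, in wt EC. Over the 22 libraries, after removing the mean of each group, the correlation of log2 values between Adamts4 and the marker sum was 0.83 (0.75 within HIP and 0.86 within EC). Within EC, Adamts4 also correlated at 0.84 with the choroid plexus sum, 0.80 with that of striatal markers and 0.71 with the cortical sum. Within HIP these values were -0.0043, -0.076 and -0.079. The correlations are descriptions only, since both libraries of a mouse enter and each pair of values shares its library. The part of oligodendrocytes in the regional difference of Adamts4 or the other members was not tested.

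**Figure D4:**
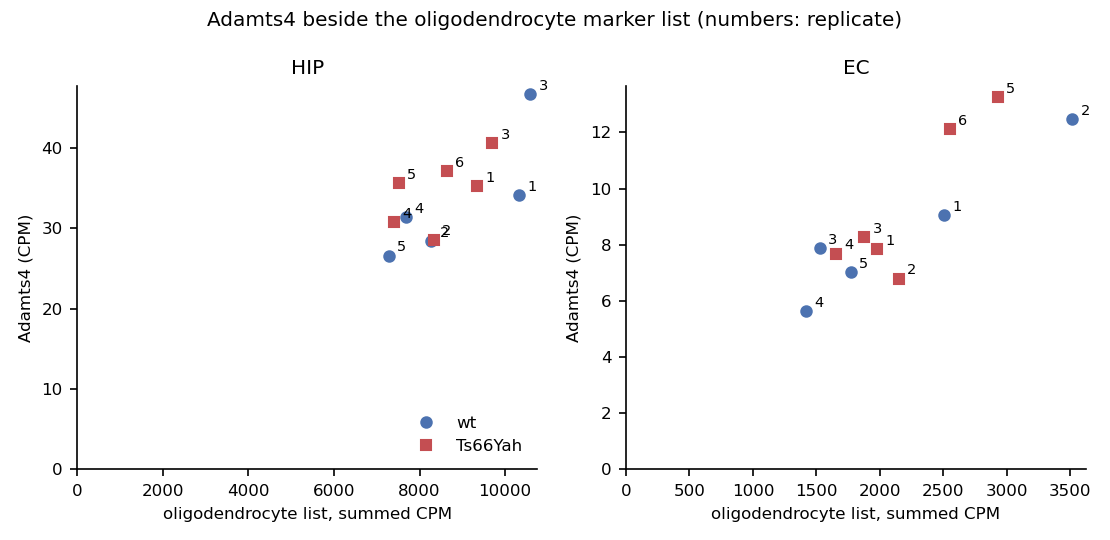
Adamts4 level (CPM, vertical) against the summed CPM of 7 oligodendrocyte markers (horizontal) in the HIP (left) and the EC (right). Each point is a library, numbered by replicate, with circles for wt and squares for Ts66Yah. The HIP points lie at 7277 to 10584 CPM of markers and the EC points at 1416 to 3518 CPM, and within each region libraries with more marker RNA tend to have more Adamts4.

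Adamts20 and Adamts9, the long proteoglycan-cleaving members, followed. Adamts20, known from the pigmentation mutant belted, was at 14.5 to 19.5 CPM in wt HIP and 3.71 to 6.00 CPM in wt EC, a log2FC of -1.85 (SE 0.14, adjusted p = 3.22e-07 by edgeR). Adamts9 was at 7.09 to 13.3 CPM in wt HIP and 2.52 to 3.995 CPM in wt EC, a log2FC of -1.69 (SE 0.18, adjusted p = 6.33e-06 by edgeR). In Ts66Yah the differences were -1.66 for Adamts20 (SE 0.14) and -1.84 for Adamts9 (SE 0.13). Both genes were lower in the EC in 11 of 11 mice, with a HIP level 2.43 to 4.63 times the EC level for Adamts20 and 2.69 to 4.63 times for Adamts9.

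Adamts1 was lower in the EC in every mouse as well, with a HIP level 1.83 to 3.21 times the EC level. Its log2FC was -1.43 in wt (SE 0.10, adjusted p = 1.61e-07 by edgeR) and -1.25 in Ts66Yah (SE 0.10, adjusted p = 1.31e-07 by edgeR). The level of Adamts1 in Ts66Yah EC, at most 21.9 CPM, stayed below the lowest wt HIP library, 25.2 CPM.

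Adamts5 went the other way. Its EC level was 1.29 times its HIP level in the median and higher in the EC in 10 of 11 mice. The log2FC was 0.41 in wt (SE 0.16, adjusted p = 0.0454 by edgeR) and 0.39 in Ts66Yah (SE 0.13, adjusted p = 0.0220 by edgeR), and the CPM ranges of the regions overlapped in both genotypes. The call rested on single animals: it was lost when wt replicate 1, 2, 3 or 4 was left out in wt (adjusted p of 0.0625 to 0.174) and when Ts66Yah replicate 2, 3 or 4 was left out in Ts66Yah (0.0561 to 0.0891).

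Of the procollagen proteinases, Adamts3 was lower in the EC, with a log2FC of -0.81 in wt (SE 0.11, adjusted p = 5.22e-05 by edgeR) and -0.76 in Ts66Yah (SE 0.14, adjusted p = 0.000384 by edgeR). Its relative Adamts2 was at 7.81 to 10.9 CPM in wt HIP and 8.17 to 10.9 CPM in wt EC, with a log2FC of 0.03 (SE 0.12, 95% confidence interval -0.22 to 0.28). In Ts66Yah the value was -0.11 (SE 0.15, -0.43 to 0.22), and the EC libraries spread from 5.60 to 11.3 CPM. Of the pair whose zinc sites are most alike, 1 member was thus called and the other was not, and the difference between them was not tested.

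The microfibril-associated members were both lower in the EC. Adamts10 had a log2FC of -1.36 in wt (SE 0.19, adjusted p = 6.12e-05 by edgeR) and -1.39 in Ts66Yah (SE 0.16, adjusted p = 5.25e-06 by edgeR). Adamts17 had -0.81 (SE 0.15, adjusted p = 0.000697 by edgeR) and -0.75 (SE 0.15, adjusted p = 0.000513 by edgeR). The regions did not overlap for 7 members in wt and for 6 in Ts66Yah, where Adamts17 was the exception, all lower in the EC. Over all tested genes such a separation, lower in the EC, was found for 18.6% in wt and 16.9% in Ts66Yah. The choroid plexus markers were lower in the EC too, 6 of 6 in both genotypes with median log2FCs of -4.56 and -4.93, and the part of this tissue in the HIP levels of the members was not tested.

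**Figure D5:**
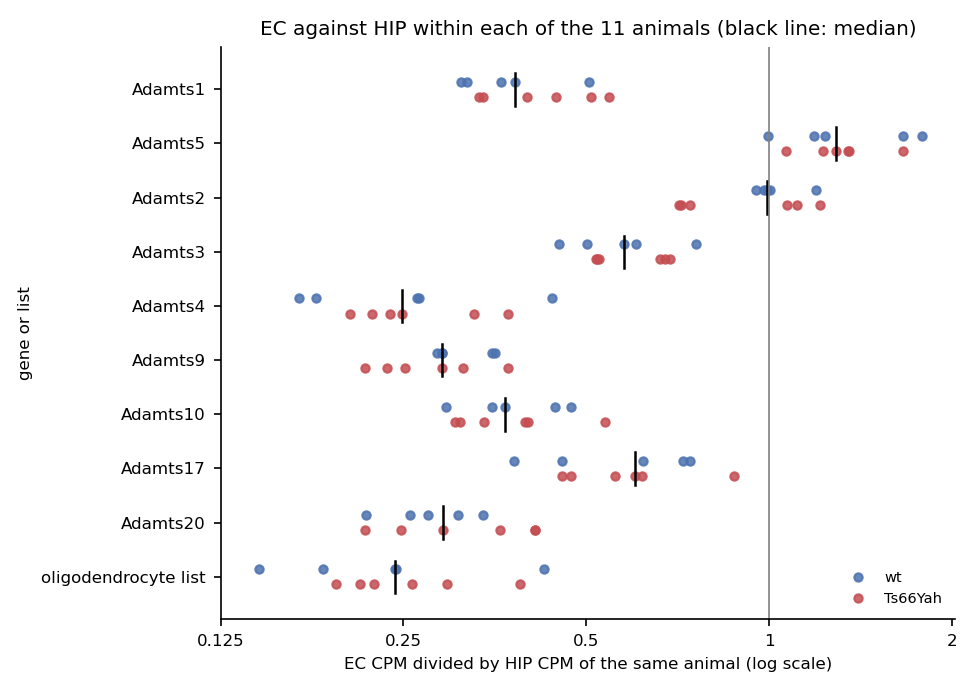
Ratio of EC CPM to HIP CPM within each animal (log scale) for the 9 members and for the sum of 7 oligodendrocyte markers. Each point is a mouse, blue for wt and red for Ts66Yah, and black lines are medians over 11 mice. Adamts4 and the marker sum have similar medians, 0.249 and 0.243, Adamts2 lies around 1, and Adamts5 is the only member with most points above 1.

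Compared per length, the order of the members changed with region and genotype. In wt HIP, Adamts4 led with 7.63 ± 1.81 RPKM (SD, n = 5), followed by Adamts1 with 5.65 ± 0.462 and Adamts3 with 3.97 ± 0.445, and the ranges of Adamts4 and Adamts1 overlapped. In Ts66Yah HIP, Adamts1 came first with 8.96 ± 1.12 RPKM (SD, n = 6) and Adamts4 next with 7.91 ± 0.991, again with overlapping ranges. In wt EC, Adamts3, Adamts1 and Adamts4 had similar levels of 2.27 ± 0.294, 2.10 ± 0.293 and 1.92 ± 0.592 RPKM, whose ranges overlapped. In Ts66Yah EC, Adamts1 was first with 3.78 ± 0.563 RPKM, above every library of the next member, Adamts3 with 2.35 ± 0.457. Adamts5 had the lowest mean in every group, from 0.180 ± 0.0309 RPKM in wt HIP to 0.382 ± 0.0598 in Ts66Yah EC. In Ts66Yah EC its range overlapped that of Adamts9, with 0.415 ± 0.0895 RPKM. With the union of all exons as length, the first in wt EC was Adamts1, and Adamts9 replaced Adamts5 as the last in both EC groups.

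The genes around the family were examined in 10 lists of 66 genes: other ADAMTS and ADAMTS-like genes, inhibitors, activating proteases, and substrates. No gene of these lists was called between genotypes by edgeR, of 63 tested in the HIP and 60 in the EC, while 8 and 5 had an unadjusted p under 0.05, beside 2188 of 18452 and 1103 of 17658 over all tested genes. DESeq2 called 3 (Ncan, Adamtsl4 and Hapln4) and 1 (Ncan), beside 357 and 107 of all genes. Of the other 10 ADAMTS genes, none passed in the HIP or the EC. The lowest p of that list was that of Adamts16 in both regions, with a log2FC of -0.41 in the HIP (SE 0.14, adjusted p = 0.257 by edgeR) and -0.21 in the EC (SE 0.18, adjusted p = 0.946).

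Among the substrates, neurocan (Ncan), a lectican of perineuronal matrix made largely by astrocytes and neurons, had the lowest p of its list in both regions. It was at 138 to 202 CPM in wt HIP and 205 to 273 CPM in Ts66Yah HIP, and at 234 to 254 CPM in wt EC and 261 to 315 CPM in Ts66Yah EC, so that the genotypes did not overlap. The log2FC was 0.43 in the HIP (SE 0.10, adjusted p = 0.0767 by edgeR) and 0.26 in the EC (SE 0.06, adjusted p = 0.166 by edgeR). DESeq2 gave adjusted p-values of 0.00296 and 0.00555. Hapln4, a link protein of perineuronal nets in the same list, went the other way in the HIP, with 167 to 230 CPM in wt and 119 to 179 CPM in Ts66Yah and a log2FC of -0.37 (SE 0.11, adjusted p = 0.180 by edgeR, DESeq2 adjusted p = 0.0494). In the EC its log2FC by DESeq2 was -0.028. Aggrecan (Acan) and versican (Vcan), the classical substrates of Adamts1 and Adamts5, did not pass: Vcan was at 25.5 ± 2.28 CPM in wt HIP (SD, n = 5) against 26.4 ± 3.13 CPM in Ts66Yah HIP (SD, n = 6), and Acan at 8.85 ± 1.43 and 8.96 ± 1.06 CPM. In the EC, Vcan was at 18.0 ± 1.48 and 17.6 ± 1.78 CPM, and Acan at 4.67 ± 1.497 and 5.63 ± 1.13 CPM, with a log2FC of 0.27 (SE 0.20). The list as a whole had median log2FCs of 0.0012 for HIP and 0.00338 for EC over 14 genes, beside 1.39e-05 and -0.00446 over all tested genes.

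Adamtsl4, an ADAMTS-like protein of microfibrils without protease activity, led its list in the HIP, with 12.4 ± 1.38 CPM in wt (SD, n = 5) and 16.6 ± 2.21 CPM in Ts66Yah (SD, n = 6) and a log2FC of 0.41 (SE 0.10, adjusted p = 0.0977 by edgeR, DESeq2 adjusted p = 0.00804). The inhibitors showed little: of the TIMP genes, Timp2 had the lowest p in the HIP, with 0.14 (SE 0.11), and Timp3 in the EC, with -0.18 (SE 0.13). The 5 procollagen genes had log2FCs below 0 in the EC in 5 of 5 cases with a median of -0.43, and none passed the threshold. Their summed level was 14.1, 23.3, 57.6, 51.2, 15.7 and 18.3 CPM in Ts66Yah EC replicates 1 to 6, against 29.9 to 50.7 CPM in wt EC, so that the low sums belonged to replicates 1, 5, 6 and 2 and the genotypes overlapped. Markers of meninges and fibroblasts were above 0 in the EC for 1 of 7 genes (median log2FC -0.28) and those of mural cells for 1 of 8 (median -0.27), none of them called. The meningeal sum was 41.7, 43.8 and 51.5 CPM in Ts66Yah EC replicates 1, 5 and 6 and 85.9 to 106.1 CPM in the other 3, against 52.1 to 87.3 CPM in wt, and its part in the procollagen levels was not tested. In the HIP, 3 of 5 procollagen genes were above 0, with a median of 0.08.

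Between regions, 44 of the 62 tested genes of the lists differed in wt, with 17 higher and 27 lower in the EC. Over all tested genes the shares were 47.7% called, 23.4% higher and 24.3% lower. In Ts66Yah, 40 of 63 differed, with 13 higher and 27 lower, beside 54% called, 26.4% higher and 27.5% lower over all tested genes. Of the other ADAMTS genes, 4 were higher and 4 lower in wt, for example Adamts18 with a log2FC of 1.87 (SE 0.22, adjusted p = 1.58e-05 by edgeR) and Adamts14, the closest relative of Adamts2 and Adamts3, with -1.80 (SE 0.24, adjusted p = 4.67e-05 by edgeR). Among the inhibitors, Timp2 rose in the EC by 1.39 (SE 0.09, adjusted p = 1.30e-07 by edgeR), from 192 ± 27.0 CPM in wt HIP to 502 ± 34.0 CPM in wt EC. Among the activating proteases, none was higher and 3 of 5 were lower in the EC, led by Pcsk6 with -1.15 (SE 0.10, adjusted p = 1.44e-06 by edgeR).

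The substrates split between regions. Reelin (Reln), cut by Adamts2 and Adamts3, was higher in the EC, with a log2FC of 1.12 in wt (SE 0.11, adjusted p = 4.40e-06 by edgeR), whereas Dab1, Vldlr and Lrp8, which receive its signal, had log2FCs of -0.32, -0.22 and -0.18. Hapln2, a link protein of the nodes of Ranvier expressed by oligodendrocytes, fell in the EC with -2.86 (SE 0.27, adjusted p = 2.32e-06 by edgeR), and Vcan with -0.50 (SE 0.08, adjusted p = 0.000277 by edgeR). Fbn2 and Fbn1, the fibrillins, had log2FCs of -1.98 and -1.10. Ccbe1, the cofactor with which Adamts3 activates VEGF-C, was lower, with -2.80 (SE 0.32, adjusted p = 1.31e-05 by edgeR). Of the 5 genes in its list, 4 had log2FCs above 0 in wt, with 1 called higher and 1 called lower in the EC. Vegfd had a mean of 1.04 CPM in wt HIP and 4.11 CPM in wt EC, and Vegfc 2.18 and 3.05 CPM. In Ts66Yah the log2FCs were 1.21 for Reln, -2.71 for Hapln2, -1.95 for Fbn2 and -2.53 for Ccbe1.

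The genes whose levels ran most like those of the triplicated members, after removing the mean of each group, were searched among 14963 genes averaging 1 CPM or more. For Adamts1 they were Wrnip1 with a Pearson r of 0.81 over the 22 libraries, Tigd2 with 0.80, Rassf9 and C1galt1c1 with 0.77 each, and Gm10052 with 0.75. Taken by region, Rassf9 had 0.78 in the HIP and 0.78 in the EC, while Wrnip1 had 0.48 and 0.96. For Adamts5 they were Tor3a with 0.80, Htr7 with 0.79, Hydin with 0.75, Marveld2 with 0.74 and Cdk2 with 0.73. None of these 10 genes lies on Mmu16. Adamts1 and Adamts5 themselves had an r of 0.15, with 0.81 in the HIP and -0.36 within EC. The libraries come from 11 animals and the values are the highest of many, so they are given as a description.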

How the data were processed

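Libraries of 5 wt and 6 Ts66Yah mice were grouped by their labels, and animal numbers tied the HIP and EC library of a mouse. According to the methods, single-end reads of 50 bases were mapped with Hisat2 to GRCm38 and counted per Ensembl 99 gene with HTSeq-count; the labels name a stranded poly(A) kit and the methods a kit for total RNA with ribosomal depletion, a difference the sources do not resolve, and the strand setting of the counting is not given in the sources used here. The authors deposited raw counts per gene, used here, and tables of their own comparisons (fold changes and p-values), not used. No count column was unmapped (0). Of 55385 identifiers, 55144 matched GENCODE M21, which gave symbols, coordinates and sequences. No 2 libraries of a group agreed within sampling noise.

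Counts were tested with edgeR 4.0.16 (R 4.3.3): TMM factors, filterByExpr, quasi-likelihood F-test, Benjamini-Hochberg adjustment over all tested genes, threshold 0.05. All 9 members passed the filter in each comparison. Genotypes were tested within a region, regions within a genotype and their interaction over all libraries. For the departure from 1.5-fold, the log of 1.5 was added to the offsets of segment genes in Ts66Yah libraries, and p was adjusted over those genes. CPM were scaled by TMM over 22 libraries, and log2 CPM had 2 as prior count. Alternatives were DESeq2 1.42.0, limma 3.58.1 (voom), RLE factors, other filters (none, or at least 1 CPM in at least 5 libraries), blocks by replicate number or range of animal numbers, all libraries in one fit, and leaving out each library or animal. The scripts were tested on simulated data. The members and lists were chosen with earlier results of these data known. All members were named, and the 5 genes most like Adamts1 and Adamts5. Of each list, genes past the threshold could be named, at most 4 per comparison by adjusted p, or else at most 1 with the lowest p. Not all of these are named. Between regions in wt, 3 procollagen genes were called higher and 2 lower in the EC, and 1 thrombospondin gene higher and 2 lower, without being named. Acan, Vegfc and Vegfd were added after values had been seen. So were the correlations of Adamts1 with sums other than the activity-regulated one, and the values of list genes in Ts66Yah given beside those in wt. The animal pairs the regions: deviations from the group means of a mouse's libraries correlated with r of 0.202 to 0.610 in 11 of 11 mice, each best with its own partner. The runs of bases that Adamts4 shares with other transcripts are not reported here.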

Additional observations from a re-analysis of the deposited data

Results flagged for a closer look

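Of 36 groups of member values, 3 held a library whose gap to its neighbour was large against the range of its group; chance gives about 1 in 20. Adamts1 in Ts66Yah HIP replicate 1 was at 54.4 CPM, against 43.9 CPM in the next library, a gap of 0.696 of the range. That library also had the highest choroid plexus sum of its group, 2860 CPM. Adamts1 in wt EC replicate 4 was at 12.8 CPM, against 10.1 CPM in the next, a gap of 0.771 of the range. Without these libraries Adamts1 stayed past the threshold in both regions. Adamts17 in Ts66Yah EC replicate 4 was at 5.36 CPM, against 3.75 CPM in the next, a gap of 0.687 of the range.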

How the results depend on the processing

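The number of members called between genotypes depended on Adamts5 and, in the EC, on Adamts1. In the HIP it was 1, and 2 with DESeq2 and with all 22 libraries in one fit, and 1 to 2 when single libraries were left out; the second member, Adamts5, came with the loss of wt replicate 2 (adjusted p = 0.0494). In the EC it was 1, and 2 with DESeq2 and with all 22 libraries, 0 without the 3 Ts66Yah libraries high in activity-regulated genes, and 0 with the replicate number as a block, where Adamts1 had 0.80 (adjusted p = 0.0693). The numbers do not pair the genotypes: same-numbered libraries correlated with 0.00516 to 0.118 in the HIP and 0.0128 to 0.276 in the EC, and 1 and 3 of 5 wt libraries correlated best with their own number. Over 21 settings the log2FC of Adamts1 was 0.59 to 0.71 in the HIP, past the threshold in 21, and 0.69 to 0.95 in the EC, past it in 19. Values of Adamts5 were 0.57 to 0.79 in the HIP and 0.61 to 0.82 in the EC. The cause of these lost and gained calls was not tested. The number of all genes called ranged from 61 (replicate block) to 357 (DESeq2) in the HIP, beside 109, and from 34 to 107 in the EC, beside 50. In the region comparisons 7 to 8 members were called when single animals were left out, always without Adamts5 where 7; in wt Adamts5 also missed the threshold without a filter (adjusted p = 0.102) and with voom (0.0512). Signs turned for values near 0 that were not called under any setting. In the HIP, Adamts3 became 0.0011 with the CPM filter, 0.0039 with voom and 0.039 with the block by range of animal numbers, and Adamts2 became 0.014 with the replicate block, 0.0041 with the block by range and 0.057 without the libraries high in activity-regulated genes. In the EC, leaving out those libraries gave 0.056 for Adamts2, -0.085 for Adamts3, -0.14 for Adamts4, 0.14 for Adamts9 and 0.043 for Adamts17, and the replicate block gave -0.040 for Adamts3. The interaction of Adamts5 became 0.0033 without a filter and 0.019 with voom, and its departure from 1.5-fold in the HIP -0.012 with the block by range. Leaving out single libraries gave -0.062 to 0.066 for Adamts2, -0.091 to 0.060 for Adamts3, -0.022 to 0.21 for Adamts4 and -0.044 to 0.16 for Adamts9 in the HIP, and -0.035 to 0.13 for Adamts3 and -0.15 to 0.022 for Adamts9 in the EC. Leaving out single animals gave -0.020 to 0.055 for Adamts2 between the regions of wt, and for the interaction -0.11 to 0.098 for Adamts5, -0.16 to 0.051 for Adamts10, -0.081 to 0.34 for Adamts4, -0.092 to 0.16 for Adamts17 and -0.027 to 0.17 for Adamts3. Adamts5 had 43 to 192 counts per library, and the effect of depth on its calls was not tested.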

Other observations

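The 5 genes whose levels ran most like those of Adamts4 after removing the mean of each group were Mal, a myelin protein, with a Pearson r of 0.90 over 22 libraries, Frmd8 with 0.89, Erbb3 and Cldn11, another myelin protein, with 0.87 each, and Traf2 with 0.86. This search was added after values had been seen. Between members, Adamts1 and Adamts17 ran in opposite directions, with an r of -0.69 (-0.53 in the HIP and -0.76 in the EC), as did Adamts4 and Adamts9, with -0.62 (-0.84 and -0.51). These values are descriptions over libraries of 11 mice that share their scaling.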
